A study of Rattus norvegicus with 8 samples.

Results

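The 10 genes described here are markers of satellite glia, measured in the right stellate ganglion of the rat: Gfap, Vim, Nes, Glul, Slc1a3, Kcnj10, Fabp7, Apoe, S100b and Sox10. They were listed by name as known markers, not by a threshold on measured values, and each is represented by 1 RefSeq transcript record, giving 10 of the 18314 records quantified. RNA sequencing was performed on 8 ganglia, 1 from each rat, from 4 male Wistar rats and 4 male spontaneously hypertensive rats (SHR), all aged 16 weeks. The Wistar strain is outbred and normotensive, and the SHR is an inbred strain with established hypertension at this age, so strain and blood pressure cannot be told apart in this design. Each whole ganglion was de-sheathed and held neurons, glia, vessels and connective tissue together. Fewer glial cells and less RNA per glial cell therefore cannot be told apart in any value below.

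Satellite glia are neural crest derived cells that wrap the cell bodies of neurons in peripheral ganglia. They take up glutamate and turn it into glutamine, buffer extracellular potassium through the channel Kir4.1, and are coupled to one another by gap junctions. After nerve injury or strong neuronal activity, satellite glia in sensory and sympathetic ganglia are known for increased GFAP. Many of their markers are shared with Schwann cells, and vimentin and apolipoprotein E are also made by fibroblasts and macrophages.

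None of the 10 records differed between the strains after correction over all records tested (edgeR quasi-likelihood test, Benjamini-Hochberg adjusted p under 0.05), where 2.85% of 13659 records did, 1.16% being higher and 1.69% lower in SHR. With all records of a gene summed, again 0 of the 10 genes passed, against 2.94% of genes. All 10 passed the filter on low counts. The fitted log2 difference, SHR minus Wistar, was positive for 5 members and negative for 5, with a median of -0.01 against 0.007 over all records. In normalised counts the 2 strains overlapped in all 10 members, and 10.6% of all records had strains that did not overlap. With only 10 members, 0 cannot be told apart from that share. In TPM, S100b did not overlap, with the lowest Wistar rat at 180.6 and the highest SHR at 180.1. By DESeq2, 0 of the 10 passed, against 5.23% of records. At an unadjusted p under 0.05, 1 member passed in edgeR and 1 in DESeq2, in both cases Gfap, against 16.8% of records in edgeR.

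Upstream sequence is shown for the 3 genes on which the description below turns: Gfap, which had the smallest p of the 10, and Vim and Apoe, which varied most between rats of a strain among the well expressed members. These are the 250 bases before an annotated start, 5′ to 3′ on the gene's strand, from RefSeq on GRCr8: chr10:88361662-88361911 on the minus strand for Gfap, chr17:81577011-81577260 on the plus strand for Vim, and chr1:88485817-88486066 on the minus strand for the most upstream of 3 Apoe starts. Capitals mark matches, on either strand, to the TATA box (TATAAA) or the CCAAT box (letters CCAAT). The core bound by SOX proteins (ACAAAG) was also searched and was in none of these 3 windows.
Gfap: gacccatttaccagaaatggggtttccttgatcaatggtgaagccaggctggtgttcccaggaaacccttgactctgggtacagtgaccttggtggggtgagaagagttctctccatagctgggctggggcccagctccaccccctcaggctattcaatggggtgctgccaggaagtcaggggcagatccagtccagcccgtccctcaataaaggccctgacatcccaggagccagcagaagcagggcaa
Vim: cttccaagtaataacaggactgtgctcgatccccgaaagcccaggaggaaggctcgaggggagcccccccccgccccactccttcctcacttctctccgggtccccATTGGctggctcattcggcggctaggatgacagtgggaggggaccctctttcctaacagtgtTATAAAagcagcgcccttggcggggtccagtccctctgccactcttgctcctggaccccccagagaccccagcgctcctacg
Apoe: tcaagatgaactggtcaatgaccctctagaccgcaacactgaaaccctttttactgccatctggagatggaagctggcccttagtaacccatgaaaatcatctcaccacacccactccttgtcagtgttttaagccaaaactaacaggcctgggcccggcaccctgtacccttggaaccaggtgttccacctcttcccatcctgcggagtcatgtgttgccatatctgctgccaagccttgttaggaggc
The Vim window held 1 match to TATAAA, 82 bases before the start, and 1 to CCAAT, 144 bases before it, whereas the Gfap and Apoe windows shown held none of the 3 motifs. Of the other 2 Apoe windows, 1 held CCAAT, 176 bases before its start. Of 14 windows in all, from 9 genes, 1 held TATAAA, 7 held CCAAT and 4 held ACAAAG. By gene, 1, 6 and 2 of the 9 held these motifs in at least 1 window. Of the 4 windows with ACAAAG, 3 are overlapping Slc1a3 windows that hold the same match. Over all 33465 windows of the same length, 12.9% held TATAAA, 34.0% held CCAAT and 16.3% held ACAAAG. The motifs were picked after the expression values were known, and a match is a description of the letters only.

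Levels between genes were compared as TPM, the share of transcripts in a library after division by record length. Averaged over the 8 rats, Vim was at 413 ± 291 TPM (SD, n = 8), Apoe at 388 ± 280, S100b at 180 ± 23.2 and Glul at 121 ± 13.6. Fabp7 was at 32.7 ± 12.997 TPM, Kcnj10 at 8.83 ± 2.19, Sox10 at 6.28 ± 1.67 and Gfap at 4.67 ± 2.02. Slc1a3 was at 0.821 ± 0.407 TPM and Nes at 0.134 ± 0.133. With all records of a gene summed, Apoe was at 459 ± 269 TPM, above Vim, Slc1a3 at 0.999 ± 0.296 and Nes at 0.789 ± 0.211. Among neighbours in the order of single records, the ranges over rats were apart only for S100b above Glul, Glul above Fabp7 and Gfap above Slc1a3. The intermediate filament that marks reactive glia was thus far below vimentin, and the order of Vim and Apoe was not fixed, since Vim was the higher in 3 of the 8 rats.

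**Figure D1:**
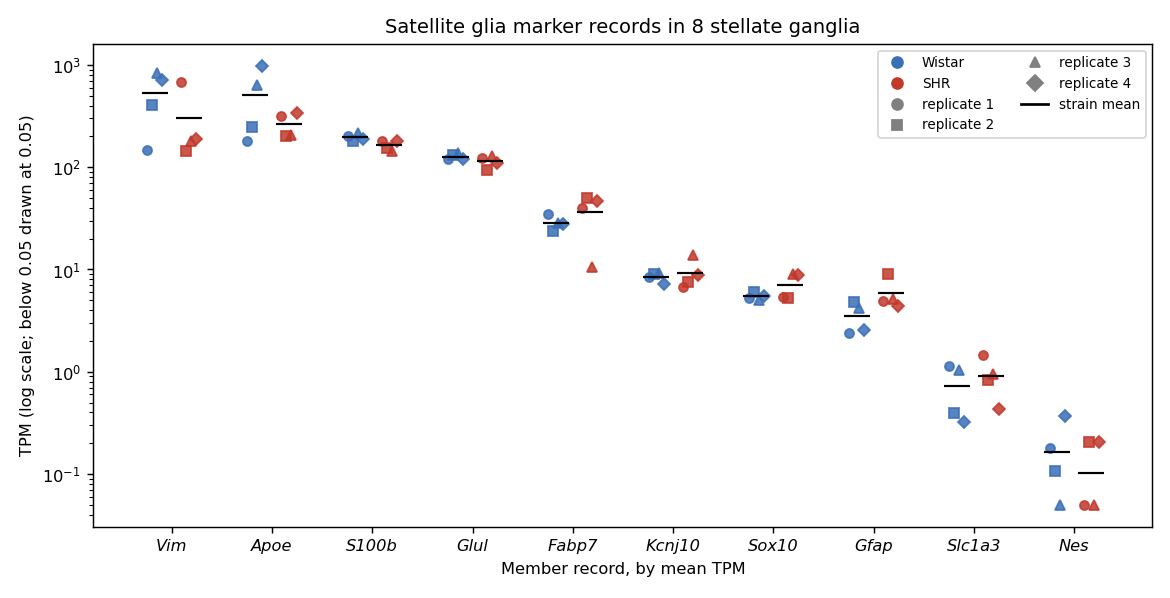
Level of the 10 marker records in TPM (log axis) in each of the 4 Wistar and 4 SHR ganglia, each point being 1 rat. Vim, Apoe, S100b and Glul lie highest, Slc1a3 and Nes lowest, and the strains overlap in every gene but S100b, where the lowest Wistar rat, at 180.6 TPM, is just above the highest SHR, at 180.1 TPM.

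Among the intermediate filaments, Gfap (NM_017009) encodes glial fibrillary acidic protein. Normalised read counts of Gfap were 189, 357, 309.6 and 195 in Wistar rats 1 to 4 and 387, 721, 352 and 332 in SHR 1 to 4. The Wistar mean was 263 ± 83.8 and the SHR mean 448 ± 184 (SD, n = 4 rats per strain), and SHR 2 stood well above the other 3. The strains overlapped, because SHR 3 and SHR 4 were below Wistar 2. The log2 difference was 0.77 with an SE of 0.30 and a 95% interval of 0.10 to 1.43, and it did not pass correction (edgeR quasi-likelihood test, Benjamini-Hochberg adjusted p = 0.234). Without SHR 2 the difference was 0.44 (edgeR, Benjamini-Hochberg adjusted p = 0.389). An unadjusted p under 0.05 was lost without SHR 2, without Wistar 1 and without Wistar 4, in fits that also had fewer rats. The difference was 0.64 without Wistar 1 and 0.67 without Wistar 4, so its size depended most on SHR 2. An exact two-sided permutation test of the mean log2 count gave p = 0.0857, where the smallest p that 4 against 4 allows is 0.0286.

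Vim (NM_031140) encodes vimentin, the filament of mesenchymal cells and immature glia. Normalised counts of Vim were 6606, 16831, 34924 and 30488 in Wistar rats 1 to 4 and 30497, 6446, 6993 and 8113 in SHR 1 to 4. Levels varied 5.29-fold within Wistar and 4.73-fold within SHR, so that Wistar 1 lay among the low SHR and SHR 1 among the high Wistar. The log2 difference was -0.77 with an interval of -2.10 to 0.56 (edgeR, Benjamini-Hochberg adjusted p = 0.539), and the exact permutation test gave p = 0.343. Without SHR 1 it was -1.64 (edgeR, Benjamini-Hochberg adjusted p = 0.0929), and without Wistar 3 it was -0.46. Leaving out Wistar 1 and SHR 1 together, which were picked by this very pattern after it was seen, gave a log2 difference of -1.94, which is no test of the strains.

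Nes encodes nestin, the filament of neural progenitors. Its member record, NM_012987, was near the limit of detection, with normalised counts, from rounded reads, of 29.8, 16.0, 0 and 58.9 in Wistar and 0, 33.7, 0 and 32.9 in SHR. Most reads of the gene went to its other record, and the member record held between 0 and 47.8% of them. With both records summed, Nes had normalised counts of 91.1, 124, 104 and 124 in Wistar and 127, 111, 171 and 173 in SHR, a log2 difference of 0.40 with an interval of -0.07 to 0.86 (edgeR on summed records, Benjamini-Hochberg adjusted p = 0.356). The sign of the member record, -0.67 on the log2 scale, was therefore opposite to that of the gene.

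**Figure D2:**
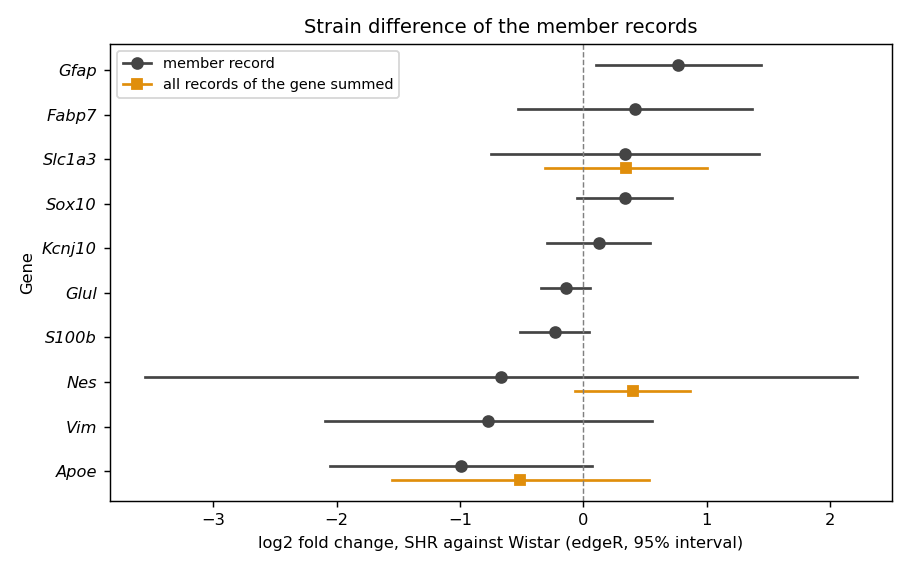
Log2 difference, SHR minus Wistar, of each member record (circles) with its 95% interval from the edgeR fit, and of all records of the gene summed (squares) for the 3 genes with several records. The Gfap interval, 0.10 to 1.43, lies above 0 before correction, and every other interval spans 0.

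Glul and Slc1a3 serve glutamate handling. Glul (NM_017073), glutamine synthetase, converts glutamate to glutamine. Its normalised counts were 8261, 8309, 8574 and 7887 in Wistar and 8366, 6593, 7663 and 7281 in SHR. This was the steadiest of the 10 records, with a within-strain SD of 0.107 on the log2 scale, lower than in all but 6.01% of records and all but 16.2% of those of like level. The log2 difference of -0.14 had an interval of -0.34 to 0.06 (edgeR, Benjamini-Hochberg adjusted p = 0.446), and was -0.08 without SHR 2. Slc1a3 encodes the glial glutamate transporter GLAST. The member record, NM_019225, had normalised counts of 116, 37.3, 97.0 and 31.3 in Wistar and 147, 85.6, 81.9 and 42.3 in SHR, and 4 records of the gene shared its few reads. With the records summed, the log2 difference was 0.35 with an interval of -0.31 to 1.004 (edgeR on summed records, Benjamini-Hochberg adjusted p = 0.570), close to the 0.34 of the member record.

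Kcnj10 (NM_031602) encodes Kir4.1, the inward rectifier that buffers potassium. Normalised counts of Kcnj10 were 329.5, 327, 328 and 269 in Wistar and 264, 301, 468 and 331 in SHR. SHR 3 was well above the Wistar range, SHR 4 lay at its upper edge and SHR 1 just below it. Between strains the log2 difference was 0.12 with an interval of -0.30 to 0.54 (edgeR, Benjamini-Hochberg adjusted p = 0.781), and without SHR 3 it was -0.065, so its sign rested on that library.

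Fabp7 and Apoe bind lipids. Fabp7 (NM_030832), the brain-type fatty acid binding protein of radial and satellite glia, had normalised counts of 367, 223, 269.9 and 275 in Wistar and 406, 536, 92.2 and 482 in SHR. The other 3 SHR were above every Wistar rat, and SHR 3 was below every one. SHR minus Wistar, this gave a log2 difference of 0.42 with an interval of -0.53 to 1.37 (edgeR, Benjamini-Hochberg adjusted p = 0.657). Without SHR 3 it was 0.75 (edgeR, Benjamini-Hochberg adjusted p = 0.0844), and without SHR 2 it was 0.21. SHR 3 was thus the lowest rat in Fabp7 and the highest in Kcnj10.

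Apoe encodes the main lipid carrier secreted by glia. The member record, NM_138828, had normalised counts of 4388, 5514, 14925 and 23547 in Wistar and 7628, 4834, 4318 and 7558 in SHR. Wistar 3 and 4 were above every SHR, and Wistar 1 and 2 lay within the SHR range. The log2 difference was -0.99 with an interval of -2.05 to 0.07 (edgeR, Benjamini-Hochberg adjusted p = 0.328). Without Wistar 4 it was -0.44 (edgeR, Benjamini-Hochberg adjusted p = 0.670). With the 5 records of the gene summed, it was -0.51 with an interval of -1.55 to 0.53 (edgeR on summed records, Benjamini-Hochberg adjusted p = 0.601).

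The division of Apoe reads among its records differed between the strains. The Apoe record NM_001270684, which is not among the 10 and was singled out after its values were seen, had normalised counts of 19.2, 0, 6.47 and 47.5 in Wistar and 4635, 1009, 2076 and 1046 in SHR. Every SHR was above every Wistar rat, with a log2 difference of 6.88, an SE of 0.85 and an interval of 4.98 to 8.77 (edgeR, Benjamini-Hochberg adjusted p = 0.0020). It took at most 0.374% of the Apoe estimated counts in Wistar and 11.5% to 35.6% in SHR. The member record took 86.8% to 97.3% in Wistar and 58.7% to 82.8% in SHR. The Apoe records are close in length and share most of their sequence, so these shares depend on how the quantifier assigned ambiguous reads, and whether a strain difference in sequence contributes was not tested.

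**Figure D3:**
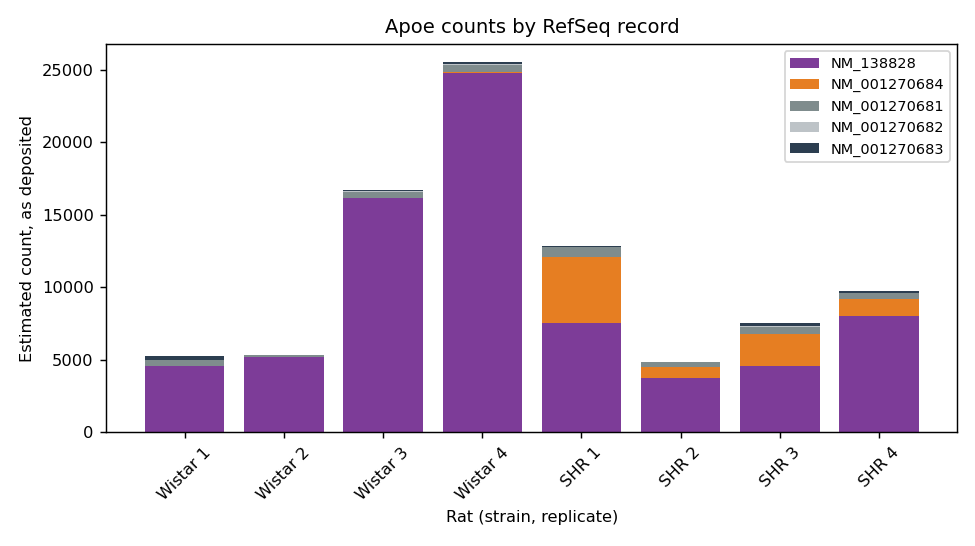
Apoe records in each rat, as drawn from the deposited estimated counts. The record NM_001270684 holds 11.5% to 35.6% of Apoe counts in the 4 SHR and at most 0.374% in the 4 Wistar rats.

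S100b (NM_013191), a calcium binding protein of glia, had normalised counts of 7815, 6446, 7589 and 6876 in Wistar and 6865, 6087, 4739 and 6778 in SHR. SHR 2 and 3 were below every Wistar rat, and SHR 1 and 4 lay within the Wistar range. The log2 difference was -0.23 with an interval of -0.51 to 0.05 (edgeR, Benjamini-Hochberg adjusted p = 0.386). Without SHR 3 it was -0.12 (edgeR, Benjamini-Hochberg adjusted p = 0.583). Sox10 (NM_019193), the transcription factor that specifies the peripheral glial lineage, had normalised counts of 406, 428, 372 and 416 in Wistar and 409, 398, 599 and 634 in SHR. SHR 3 and 4 were above all other rats, and SHR 1 and 2 were within the Wistar range. For Sox10 the log2 difference was 0.33 with an interval of -0.05 to 0.72 (edgeR, Benjamini-Hochberg adjusted p = 0.365).

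Spread between rats of a strain differed widely among the members. The within-strain SD on the log2 scale was 2.27 for the barely detected Nes record, 1.07 for Vim, 0.870 for Apoe, 0.858 for Fabp7 and 0.826 for Slc1a3, higher than in 99.6%, 95.7%, 92.6%, 92.2% and 91.5% of records, against a median of 0.258 over all records. The Slc1a3 member record held 63.5%, 46.95% and 41.67% of the gene's estimated counts in Wistar 2, Wistar 4 and SHR 4. It held 92.25% in SHR 1 and 100% in the other rats. With its records summed, Slc1a3 ran over a narrower range, 58.2 to 114 normalised counts in Wistar and 82.4 to 160 in SHR. Its spread above is thus partly that of the division of reads among records. Most of the spread of the summed level between rats came from Vim and Apoe. The 10 records summed to 699, 1009, 1876 and 2038 TPM in Wistar and 1364, 665, 702 and 887 TPM in SHR, whereas the other 8 summed to 352 to 399 TPM in Wistar and 312 to 360.1 TPM in SHR.

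The members did not vary together as 1 set across the 8 rats. Over the 45 pairs, Pearson's r of log2 CPM (read counts scaled to library size) ranged from -0.741 to 0.794 with a median of -0.075, and 20 were positive and 25 negative. By exact permutation over all pairings of the rats, 1 of 45 pairs had an unadjusted p under 0.05 for Pearson's r and 3 for Spearman's rho, and 0 passed Benjamini-Hochberg adjustment for either. The pair with the highest coefficient was Vim and Apoe, with r = 0.79 (exact permutation p = 0.0110, adjusted p = 0.493) and rho = 0.81 (exact permutation p = 0.0218, adjusted p = 0.628) over 8 rats. It was 0.84 without the 2 rats farthest from the median of Vim and 0.75 after each strain's mean was subtracted. Records outside the members, given below, followed Vim over the rats more closely, with r up to 0.996, so such a relation was not particular to this pair. Values of Nes and of Sox10 fell into separate groups of rats, so no coefficient is given for their pairs, though the 45 include them. The other 28 pairs had a median r of 0.047. Both genes of a pair come from the same libraries and share their depth.

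**Figure D4:**
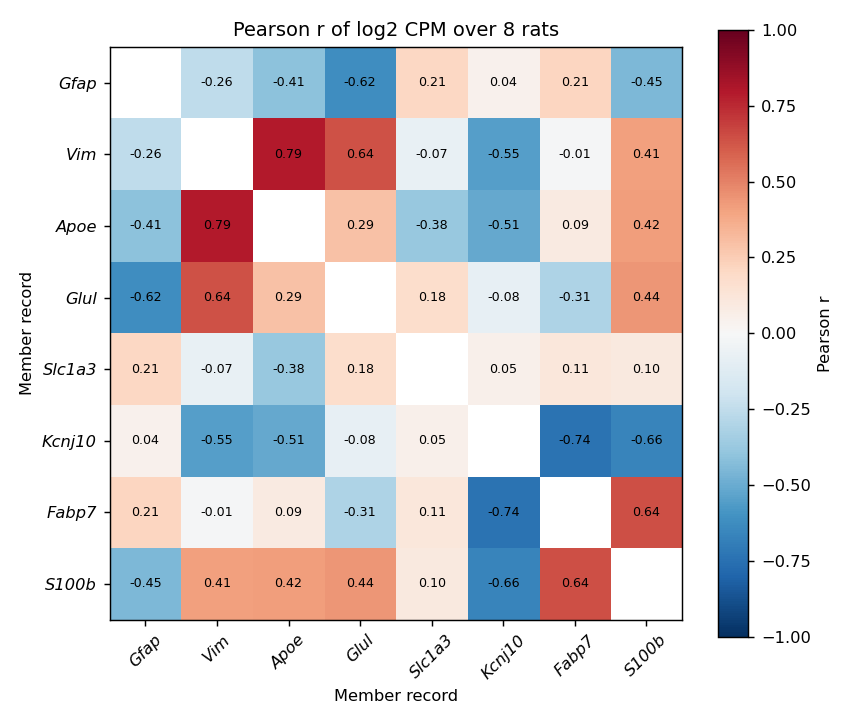
Pearson's r of log2 CPM over 8 rats for the 28 pairs among 8 member records, Nes and Sox10 being left out because their values fell into separate groups. Vim and Apoe have the highest r, 0.79, and Kcnj10 and Fabp7 the lowest, -0.74.

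Kcnj10 and Fabp7 had the lowest r, -0.74 (exact permutation p = 0.0535, adjusted p = 0.727), with rho = -0.33 (exact permutation p = 0.428, adjusted p = 0.875). Without the 2 rats farthest from the median of Kcnj10, r was 0.060, so the relation rested on those rats.

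The records most like Sox10 and Vim over the 8 rats were sought among 10657 records with a mean of at least 50 normalised counts. For Sox10 the nearest were Rabl6, Chrna5, Vps13a, Tbcc and Stxbp5l, with r from 0.96 to 0.98. These r are a description only, because Sox10 values fell into separate groups of rats. Without the 2 rats farthest from the Sox10 median, the same r ranged from 0.37 to 0.89. For Vim, a target added after its values were seen, they were Hexa, B4gat1, Nfkbie, Dmac2l and Dnajc2, with r from 0.988 to 0.996 and from 0.987 to 0.998 without 2 rats. B4gat1, for example, had normalised counts of 143, 569, 1500.0 and 1488 in Wistar and 970.0, 153, 159 and 218 in SHR, the same rats being high and low as in Vim. Records outside the members and lists also showed this pattern. Pmpca, for example, had 1191, 2282, 3958 and 4050 in Wistar and 2898, 834, 1064 and 878 in SHR. How many records share it was not counted. None of the 10 nearest records differed between strains (edgeR, Benjamini-Hochberg adjusted p from 0.270 to 0.523).

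**Figure D5:**
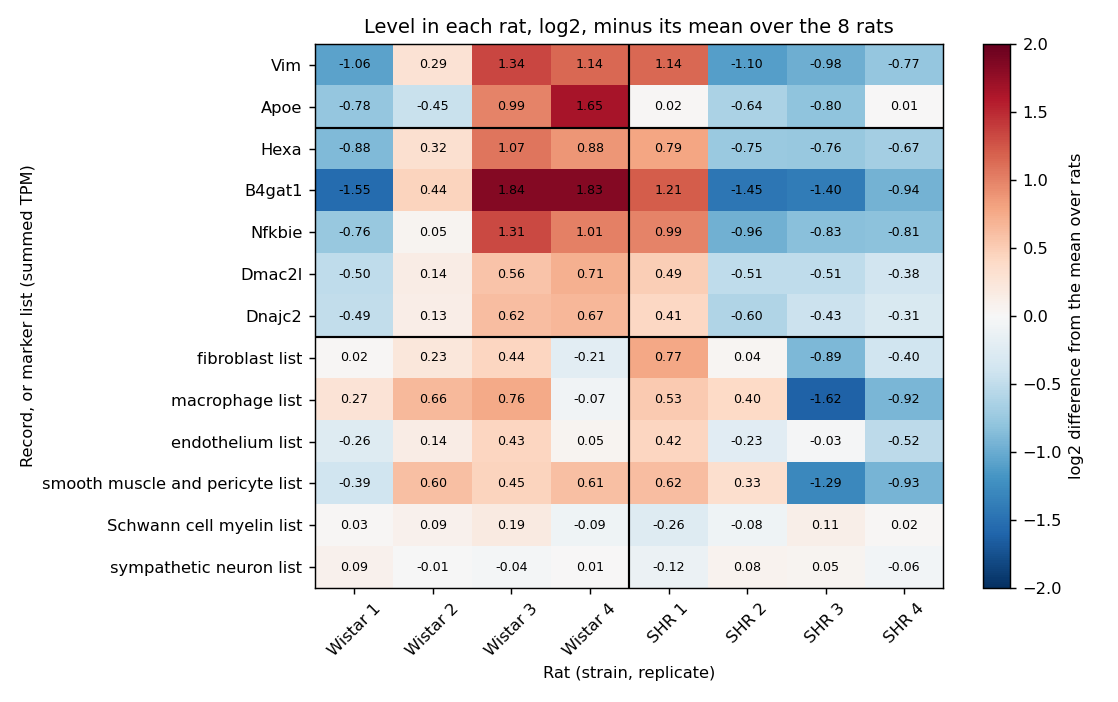
Log2 level minus its mean over the 8 rats for Vim, Apoe, the 5 records most like Vim, and the summed TPM of 6 cell type marker lists, with 1 column per rat. Wistar 3, Wistar 4 and SHR 1 are high and Wistar 1, SHR 2, SHR 3 and SHR 4 low in Vim and its 5 nearest records.

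Markers of other cells in the ganglion were set beside these values. Summed fibroblast markers ran from 1191 to 1866 TPM in Wistar and from 743 to 2345 TPM in SHR, highest in SHR 1 and lowest in SHR 3. Summed macrophage markers ran from 596 to 1057 TPM in Wistar and from 203 to 901 TPM in SHR, and smooth muscle and pericyte markers from 75.6 to 151 TPM and from 40.5 to 153 TPM, each lowest in SHR 3 and 4. SHR 3 and 4, in which these were low, had the highest Sox10. SHR 3 was, however, the lowest rat in S100b, at 4739 normalised counts, and in Fabp7, at 92.2, so the members did not all rise there. Summed adipocyte markers were 232.5 TPM in SHR 1 against 15.5 to 87.2 TPM in the other 7 rats. Summed Schwann cell myelin markers were 2313 ± 184 TPM in Wistar and 2153 ± 233 TPM in SHR (SD, n = 4), and sympathetic neuron markers were 55240 ± 2133 TPM and 54300 ± 3440 TPM. No defining marker of these lists was at 0 in all rats. Of 20 relations between a member and the neuron or fibroblast sum, 0 passed adjustment over 65 relations. By exact permutation of Pearson's r, 1 had an unadjusted p under 0.05, that of Sox10 with the fibroblast sum, which was negative. Sox10 values fell into separate groups of rats, and r was -0.26 without the 2 rats farthest from the Sox10 median. By Spearman's rho that relation had an exact permutation p of 0.0962. The smallest p by Spearman's rho was that of Vim with the neuron sum (rho = -0.76, exact permutation p = 0.0368, adjusted p = 0.745). Pearson's r for it was -0.67 (exact permutation p = 0.0789), and -0.40 without the 2 rats farthest from the Vim median. Beyond these relations, the part of other cells in the member values was not tested.

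Other genes of satellite glia and of the members' pathways were examined as lists, whose calls are read against the 2.85% of all records that passed adjustment and whose unadjusted counts are read against 16.8%. Of 17 tested records of other satellite glia genes, 0 passed in either direction and 3 had an unadjusted p under 0.05 (edgeR), with a median log2 difference of 0.08. Ptprz1, a receptor tyrosine phosphatase of glia, came nearest, with normalised counts of 68.2, 56.4, 56.4 and 52.2 in Wistar and 79.0, 114, 198 and 242 in SHR. All 4 SHR were above all Wistar rats, and the log2 difference was 1.44 with an SE of 0.34 (edgeR, Benjamini-Hochberg adjusted p = 0.0550). Ttyh1, a chloride channel of glia, had a difference of 0.38 (edgeR, Benjamini-Hochberg adjusted p = 0.279).

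Among genes of glutamate and glutamine handling, 0 of 9 records passed and 1 had an unadjusted p under 0.05, with a median of -0.13. Got2, the mitochondrial aspartate aminotransferase, had a mean normalised count of 27237 ± 3045 in the Wistar rats and of 23977 ± 2511 in the SHR (SD, n = 4). It was not the record with an unadjusted p under 0.05, and its log2 difference was -0.18 with an SE of 0.11 (edgeR, Benjamini-Hochberg adjusted p = 0.423). Among genes of potassium buffering and gap junctions, 0 of 6 passed and 1 had an unadjusted p under 0.05, with a median of 0.07. Kcnj16, which pairs with Kir4.1, was at 41.7 ± 7.01 and 76.9 ± 37.8, and Atp1b2, a sodium pump subunit, at 1080 ± 645 and 709 ± 123.

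Of 11 records of lipid carriers and cholesterol synthesis, 0 passed and 4 had an unadjusted p under 0.05, with a median of 0.07. Srebf2, the master regulator of cholesterol synthesis, was at 6313 ± 1097 normalised counts in Wistar and 8451 ± 456 in SHR, and Sqle, squalene epoxidase, at 7273 ± 438 and 6023 ± 521. Of 8 glial transcription factor records, 0 passed, also without adjustment, with a median of 0.23. Tfap2a was at 81.6 ± 22.2 and 129 ± 53.9, and Sox8 at 97.0 ± 33.6 and 67.5 ± 27.0. These pathway lists thus held 0 calls, which in lists this short cannot be told apart from the 2.85% of all records.

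Of 8 other intermediate filament records, 0 passed and 5 had an unadjusted p under 0.05, with a median of 0.21. Nefh, the heavy neurofilament, was at 1650.3 ± 111 normalised counts in Wistar and 2216 ± 369.9 in SHR, and Ina, internexin, at 3734 ± 349 and 3134 ± 227. Of 12 reactive glia records, 0 passed and 2 had an unadjusted p under 0.05, with a median of -0.06. S1pr3, a sphingosine phosphate receptor, was at 7096 ± 845 and 8573 ± 930.3, and Cp, ceruloplasmin, at 854 ± 133 and 599 ± 206. Ina and Cp had lower means in SHR, and Nefh, S1pr3 and Gfap higher ones.

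In the cell type lists, 0 of 21 Schwann cell myelin records passed and 4 had an unadjusted p under 0.05, Mbp coming nearest with a log2 difference of -0.74 (edgeR, Benjamini-Hochberg adjusted p = 0.0872). Of 29 sympathetic neuron records, 4 fell in SHR and 0 rose, namely 2 records of Ddc (-1.08 and -0.92), Chrnb4 (-0.63) and Chga (-0.59), on the log2 scale. Of 11 endothelial records, 1 rose, Flt1, by 1.19 on the log2 scale (edgeR, Benjamini-Hochberg adjusted p = 0.0298). The smooth muscle, fibroblast, macrophage and adipocyte lists held 0 calls among 8, 10, 12 and 6 records, with 0, 1, 0 and 1 at an unadjusted p under 0.05 (edgeR).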

How the data were processed

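RNA was sequenced from 8 right stellate ganglia (75-base paired reads per the study's methods). Per the labels, the authors checked reads with FastQC 0.11.7 and quantified them with Salmon 0.8.2, against the rn6 RefSeq transcripts. The labels and the methods name different library and RNA kits. The authors deposited, per record, the estimated count that Salmon assigned and the TPM derived from it, and both were used unpooled. Totals ran from 25820299 to 35509074 estimated counts, and intervals cover the spread between these rats only.

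Counts were rounded, filtered and TMM-normalised, and strains were compared with edgeR 4.0.16 in R 4.3.3 (quasi-likelihood test, Benjamini-Hochberg over 13659 records, threshold 0.05), after testing on simulated data. DESeq2 1.42.0 and limma 3.58.1 were alternatives. Normalised counts are scaled to the mean library. Symbols came from RefSeq (17352 of 18314 records). For correlations, CPM were logged (base 2) after adding a prior of 2 counts. Values were taken as separate groups where 1 gap exceeded 0.5 of the range with at least 2 rats on each side, a criterion set after the values were seen. All 10 members were named, and from each list the records past the threshold (at most 4), otherwise the 2 with the smallest p, and the 5 records most like Sox10. The values of 1 record that this rule names are not reported here. The members and lists were chosen with earlier results of these data known. Replicate numbers did not pair the rats.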

Additional observations from a re-analysis of the deposited data

Results flagged for a closer look

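In all, 5 single values stood apart from the other 3 rats of their strain by a gap above Dixon's 95% critical value for 4 samples. They came from 48 groups examined, where chance gives about 2.4. Gfap was at 721 normalised counts in SHR 2, Kcnj10 at 269 in Wistar 4 and Vim at 30497 in SHR 1. The summed reactive glia genes were at 284 TPM in Wistar 2, and the summed adipocyte markers at 232.5 TPM in SHR 1. SHR 1 was thus apart from its strain in both Vim and adipocyte markers. In Wistar, however, the rat with the highest adipocyte sum, Wistar 1 at 87.2 TPM, had the lowest Vim, at 6606 normalised counts. The cause was not tested.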

How the results depend on the processing

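No member passed under any alternative but 1, which left out Wistar 1 and SHR 1 together. The count of all records past the threshold was 389, and it was 782 with DESeq2, 852 with DESeq2 and a length offset, 132 with a replicate block, and 237 to 454 when 1 rat was left out (237 without Wistar 2, 243 without Wistar 3, 238 without Wistar 4 and 248 without SHR 4). Upper quartile scaling gave 190 higher and 183 lower, against 158 and 231. The replicate block changed no member call. Same-numbered rats deviated with correlations of -0.29, -0.12, -0.16 and -0.04, so the numbers did not pair them.

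One further setting was run after the data had been seen, leaving out Wistar 1 and SHR 1 together. These rats were picked by the Vim and Apoe levels that the fit then compares, so it is no test of a strain difference. It gave 1068 records (303 higher, 765 lower) and 1 member, Vim, with a log2 difference of -1.94 (edgeR, Benjamini-Hochberg adjusted p = 0.0023). With either rat left out alone, 0 members passed, and Vim was at -1.64 without SHR 1 (edgeR, Benjamini-Hochberg adjusted p = 0.0929). Without SHR 1, 5 members had an unadjusted p under 0.05 (edgeR), as did 2866 of the 13846 records tested in that setting. Leaving out any other rat alone gave 0 to 2 members.

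Of 209 member values under alternatives, 204 kept their sign and side of the threshold. Besides Vim, the exceptions changed sign: Kcnj10 (-0.065 without SHR 3, and up to 0.23 with another rat left out), Slc1a3 (-0.0081 without SHR 1, up to 0.68) and Nes (0.40 with records summed, and 0.14 without Wistar 4, down to -1.28). Nes was untested with at least 10 counts in every rat. The median r of member pairs, -0.075, was -0.0015 on log2(TPM + 1), -0.0046 with strain means subtracted, -0.143 as Spearman's rho, -0.122 to 0.057 with 1 rat left out, and, in alternatives added after the data were seen, -0.0021 with records summed and 0.047 over 28 pairs. Its sign thus depended on the setting. Where causes are not given, the cause was not tested. With 4 rats per strain, the wide intervals of Vim, Apoe, Fabp7, Slc1a3 and Nes limit what could be detected.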
